A study of Mus musculus with 12 samples.

Results

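Connexins 40, 37, 43 and 45, encoded by Gja5, Gja4, Gja1 and Gjc1, are the connexins usually described in blood vessels. Their 4 rows were taken by symbol from a table of 33531 mouse genes that lists 20 connexins, and all 4 were among the 13278 genes tested. The libraries came from mouse conceptuses of embryonic day 11.5, when the first blood stem cells bud in clusters from the inner lining of the large arteries. Dorsal aortas, umbilical arteries and vitelline arteries of 122 embryos were dissociated, and cells with CD31, CD144 and ESAM on their surface were divided by c-Kit into cluster cells (HC, c-Kit+) and endothelial cells (EC, c-Kit-). Each type was divided again by GFP from a Ly6a-GFP transgene, with a yield of 53000 cells for GFP+ HC, 413000 cells for GFP- HC, 377000 cells for GFP+ EC and 791000 cells for GFP- EC, and every population was pooled into 3 samples for poly(A) RNA sequencing. All 4 populations are from the same cross, in which F1 females of C57BL/6 x 129S1/SVImJ were mated to males that carry Tg(Ly6a-GFP), on the strain background B6129S, and GFP+ and GFP- cells were told apart by the reporter's signal. GFP marks activity of the Ly6a transgene and is not the endogenous Sca-1 protein, and the cells of many embryos were pooled, so no value belongs to 1 embryo or to 1 vessel.

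Connexins are membrane proteins that assemble into rings. A ring in one cell docks with a ring in its neighbour, and the channels that form, clustered in gap junctions, let ions and small molecules pass directly from cell to cell. Connexins 37 and 40 are the typical connexins of arterial endothelium, where Notch signalling and blood flow are known to raise them. Connexin 43 is also abundant in smooth muscle, mesenchyme and heart muscle, and connexin 45 is a widely made connexin of the early vessel wall and heart that mouse embryos need to form normal vessels.

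Levels are given as FPKM, fragments per kilobase of transcript scaled to the mapped fragments of the library, a scale per length on which different genes can be set side by side. Differences are log2 fold changes of FPKM + 1 with their standard error, first population over second, from limma fitted to all 12 libraries, and adjusted p-values follow Benjamini and Hochberg over the 13278 genes, with a threshold of 0.05. The values keep no read number, so sequencing depth is unknown. Sums of FPKM per library ran from 555675 to 691948, 12147 to 12779 genes reached FPKM 1, and the correlation of log2(FPKM + 1) across genes was 0.956 to 0.979 for the 12 pairs of libraries within a population and 0.899 to 0.968 for the 54 pairs between populations. The sorted types were checked against their defining genes. Ly6a averaged 5.83 FPKM in GFP+ HC, 0.768 FPKM in GFP- HC, 8.76 FPKM in GFP+ EC and 0.896 FPKM in GFP- EC. Cdh5, which encodes CD144, averaged 457 FPKM in GFP+ HC, 435 FPKM in GFP- HC, 713 FPKM in GFP+ EC and 513 FPKM in GFP- EC. Kit had 35.5 FPKM in GFP+ HC and 14.0 FPKM in GFP+ EC, a rise that passed the test (adjusted p = 0.000343), but 21.4 FPKM in GFP- HC against 16.3 FPKM in GFP- EC did not pass the test (adjusted p = 0.193). Ptprc, the pan-leukocyte antigen CD45, was at 10.3 FPKM in GFP+ HC, 5.53 FPKM in GFP- HC, 0.474 FPKM in GFP+ EC and 0.0922 FPKM in GFP- EC.

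Gja5 was the connexin that separated the populations most. The 3 libraries of GFP+ HC had 25.6, 32.0 and 43.8 FPKM, those of GFP- HC 4.75, 6.79 and 6.09 FPKM, those of GFP+ EC 261, 271 and 277 FPKM, and those of GFP- EC 41.6, 43.5 and 36.0 FPKM. GFP+ endothelium stood far above every other population, GFP- cluster cells stood far below, and the ranges of GFP+ HC and GFP- EC overlapped. The means were 33.8 ± 9.25 FPKM in GFP+ HC, 5.88 ± 1.04 FPKM in GFP- HC, 269 ± 8.02 FPKM in GFP+ EC and 40.4 ± 3.93 FPKM in GFP- EC (SD, n = 3 each). In GFP+ EC this placed Gja5 at rank 289 of the 33531 genes, within the highest 0.862%, whereas its rank in GFP- HC was 8990.

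**Figure D1:**
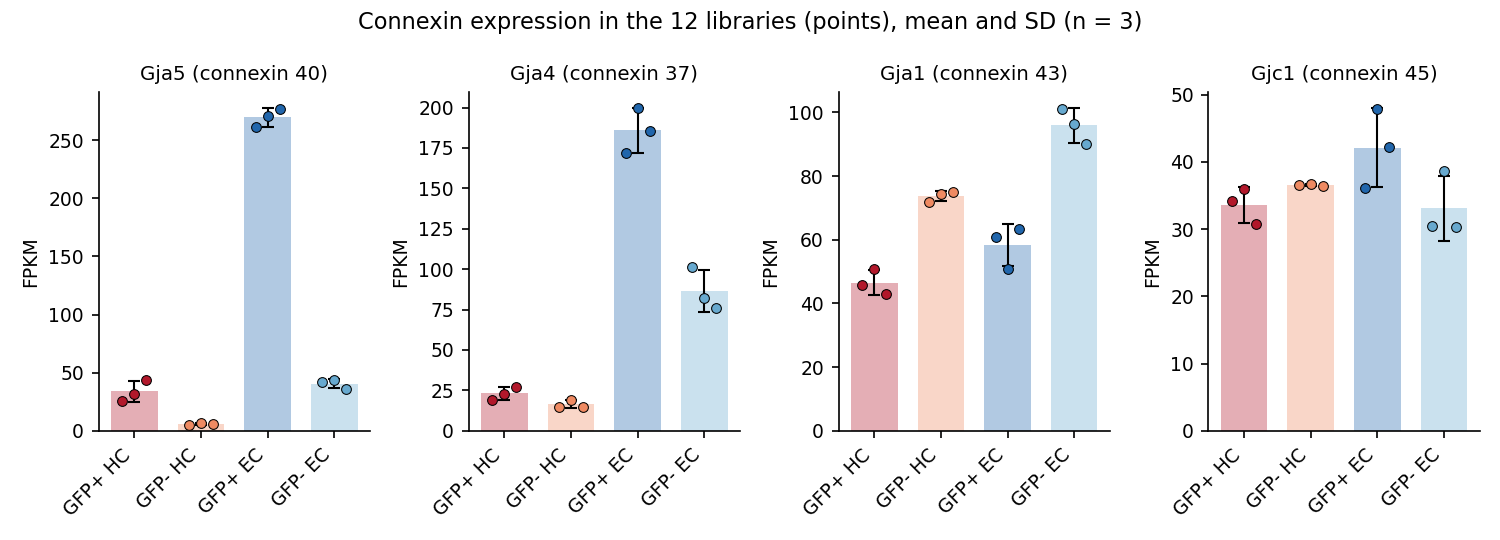
FPKM of the 4 connexins in each of the 12 libraries, by sorted population. Points are libraries, bars are means and error bars are SD (n = 3), and each panel has its own axis from 0. Gja5 and Gja4 are highest in GFP+ EC (means of 269 and 186 FPKM), Gja1 is highest in GFP- EC (95.9 FPKM), and the group means of Gjc1 lie between 33.1 and 42.1 FPKM.

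Gja5 rose with GFP in both cell types. In cluster cells the difference was 2.32 ± 0.17, a 5.75-fold higher mean FPKM in GFP+ HC than in GFP- HC (adjusted p = 3.33e-05), which was rank 15 among the rises of all tested genes. In endothelium it was 2.71 ± 0.17, a 6.67-fold higher mean in GFP+ EC than in GFP- EC (adjusted p = 3.85e-06), at rank 22. The difference between these effects, HC minus EC, was -0.39 ± 0.24 with a 95% interval of -0.92 to 0.13 (adjusted p = 0.593), so a difference in the size of the response was not detectable and an equal response was not shown. Erythroid transcripts moved with GFP as well. The summed FPKM of 9 erythroid markers ranged from 822 to 1139 in GFP+ HC, 6227 to 9549 in GFP- HC, 931 to 2373 in GFP+ EC and 3288 to 7627 in GFP- EC. Of the 9, 8 were called lower in GFP+ HC than in GFP- HC, beside 1.28% of all tested genes. In GFP+ EC 7 of the 9 were called lower than in GFP- EC, beside 6.51%. With the mean of these erythroid markers as a covariate, the effect on Gja5 in cluster cells was 2.22 and no longer passed the test (adjusted p = 0.213). The effect in endothelium kept its call. The covariate is the mean of log2(FPKM + 1) over the erythroid markers. The median change of these markers with GFP was -2.83 in cluster cells and -1.35 in endothelium. Their sums in GFP+ and GFP- cells did not overlap in either cell type, so this covariate, though not a sum, and GFP can hardly be told apart. With it, 13 genes in all were called in GFP+ HC against GFP- HC, where 566 were called without it. Pan-endothelial markers were unequal too. In GFP+ EC 7 of 10 were higher than in GFP- EC (median 0.49, sums of 3191 to 3324 FPKM in GFP+ EC and 1963 to 2483 FPKM in GFP- EC), beside 6.96% of all tested genes. In GFP+ HC 1 of 10 was higher than in GFP- HC (median 0.18, sums of 2132 to 2387 FPKM in GFP+ HC and 1679 to 2297 FPKM in GFP- HC), beside 2.98% of all tested genes. The part of either marker list in the connexin results was not tested further.

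Gja5 was also lower in cluster cells than in endothelium of the same GFP class. The difference was -2.99 ± 0.17 between GFP+ HC and GFP+ EC (adjusted p = 5.52e-06), a mean 7.97-fold lower, and -2.60 ± 0.17 between GFP- HC and GFP- EC (adjusted p = 3.68e-05), a mean 6.87-fold lower. Each was the 10th largest fall among the tested genes of its comparison. The widest gap was between the GFP- cluster cells and the GFP+ endothelium, 5.88 against 269 FPKM, a mean 45.9-fold lower and the largest fall of the 13278 tested genes (-5.31 ± 0.17, adjusted p = 1.58e-08). GFP+ HC and GFP- EC, neighbours in the order of levels, did not differ beyond their spread (-0.28 ± 0.17, 95% interval -0.65 to 0.09, adjusted p = 0.27), though without replicate 3 of GFP+ HC, the highest library of that group, the difference was -0.48 and passed (adjusted p = 0.0441). Because these are bulk samples, fewer cells that make a transcript and less transcript per cell cannot be told apart, here and for every level below.

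Gja4 followed Gja5 between the cell types but responded less to GFP. Its levels were 19.3, 22.7 and 27.3 FPKM in GFP+ HC, 15.0, 19.2 and 14.9 FPKM in GFP- HC, 172, 199.6 and 186 FPKM in GFP+ EC, and 101, 82.0 and 76.1 FPKM in GFP- EC. Both cluster populations lay below both endothelial ones in every library, a lack of overlap shown by 33.3% of all tested genes for GFP+ HC against GFP+ EC, 23.8% for GFP- HC against GFP- EC, 34.1% for GFP+ HC against GFP- EC and 39.7% for GFP- HC against GFP+ EC, and the lowest GFP+ HC library was just above the highest GFP- HC library. Cluster cells had a mean 8.05-fold lower than endothelium among GFP+ cells (23.1 ± 4.03 against 186 ± 13.8 FPKM, SD, n = 3 each, -2.97 ± 0.14, adjusted p = 2.42e-06) and 5.29-fold lower among GFP- cells (16.3 ± 2.43 against 86.4 ± 13.1 FPKM, -2.33 ± 0.14, adjusted p = 3.22e-05). In endothelium Gja4 rose with GFP by 1.10 ± 0.14, a mean 2.15-fold higher (adjusted p = 0.000678). In cluster cells the difference of 0.47 ± 0.14 did not pass the test over all genes (adjusted p = 0.111, unadjusted p = 0.00782), and its 95% interval ran from 0.15 to 0.79. The difference between the effects, -0.63 ± 0.20, had an unadjusted p of 0.01 and an adjusted p of 0.238.

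The gene starts of Gja5, Gja4 and Gja1 are shown because the first pair has a shared pattern over the libraries that the last does not have. The sequences are RefSeq's, on build GRCm38.p6, 5′ to 3′ on the gene's strand, from 250 bases before to 50 bases after the start. Capitals mark matches, on either strand, to short motifs of factors that act in arteries (TGGGAA for RBPJ, ACAAT for SOX factors, AGGTGT for T-box factors, CACCC for KLF factors) and to TATAAA. Matches of different motifs did not overlap.
Gja5, chr3:97032152-97032451, plus strand: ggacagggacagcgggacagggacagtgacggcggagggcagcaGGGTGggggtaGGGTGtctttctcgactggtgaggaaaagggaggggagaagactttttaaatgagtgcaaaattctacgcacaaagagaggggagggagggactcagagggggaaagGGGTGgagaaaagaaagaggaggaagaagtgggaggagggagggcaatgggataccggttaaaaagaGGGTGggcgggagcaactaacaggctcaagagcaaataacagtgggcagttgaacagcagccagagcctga
Gja4, chr4:127313990-127314289, minus strand: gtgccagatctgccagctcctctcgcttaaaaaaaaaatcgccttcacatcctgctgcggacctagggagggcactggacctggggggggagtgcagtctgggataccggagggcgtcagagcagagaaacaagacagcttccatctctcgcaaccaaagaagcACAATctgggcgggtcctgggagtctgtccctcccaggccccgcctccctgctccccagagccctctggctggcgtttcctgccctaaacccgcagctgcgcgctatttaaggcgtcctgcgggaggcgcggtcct
Gja1, chr10:56377050-56377349, plus strand: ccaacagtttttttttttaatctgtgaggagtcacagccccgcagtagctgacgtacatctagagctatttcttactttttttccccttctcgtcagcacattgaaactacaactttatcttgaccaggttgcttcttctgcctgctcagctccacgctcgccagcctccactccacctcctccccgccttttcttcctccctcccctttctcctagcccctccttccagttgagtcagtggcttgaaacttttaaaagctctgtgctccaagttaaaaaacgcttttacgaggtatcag
The Gja5 window holds the KLF letters 4 times, all as GGGTG on the gene's strand, with their first base at -206, -195, -88 and -21 relative to the start. Of 32851 mouse promoter windows of the same length, 57.5% hold these letters at least once and 3.10% hold them 4 or more times. The Gja4 window holds ACAAT at -86, and 31.0% of all windows hold these letters at least once on either strand. The Gja1 window holds none of the 5 motifs. TGGGAA is in 25.6% of all windows, AGGTGT in 13.7% and TATAAA in 13.6%, and none of these is in the 3 windows shown. The windows also differ in base composition, with a GC content of 55.7% and 7 CpG dinucleotides for Gja5, 62% and 16 for Gja4 and 47.7% and 8 for Gja1, against medians of 52.7% and 7 over all windows. A match of letters does not show that a factor binds, and a window without them says nothing about the factor.

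Gja1 changed with GFP in the opposite direction. GFP+ HC had 45.9, 50.8 and 42.9 FPKM, GFP- HC 72.0, 74.3 and 74.9 FPKM, GFP+ EC 60.7, 50.9 and 63.3 FPKM, and GFP- EC 101, 96.5 and 90.2 FPKM. No library of a GFP+ population reached the lowest library of either GFP- population, and ranges that did not overlap were found for 23.6% of all tested genes between GFP+ HC and GFP- HC and for 31.6% between GFP+ EC and GFP- EC. The mean was lower in GFP+ HC than in GFP- HC (46.5 ± 3.99 against 73.7 ± 1.56 FPKM, -0.66 ± 0.09, adjusted p = 0.00212) and lower in GFP+ EC than in GFP- EC (58.3 ± 6.56 against 95.9 ± 5.46 FPKM, -0.71 ± 0.09, adjusted p = 0.000602, SD, n = 3 each). The effects differed by 0.06 ± 0.13 (95% interval -0.23 to 0.34, adjusted p = 0.928), a value that changed sign with the scaling of the libraries. With the erythroid markers as a covariate, which can hardly be told apart from GFP, the fall in cluster cells was -1.01 and no longer passed the test.

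Between the cell types Gja1 differed far less than Gja5 and Gja4. The difference was -0.32 ± 0.09 for GFP+ HC against GFP+ EC (adjusted p = 0.041) and -0.37 ± 0.09 for GFP- HC against GFP- EC (adjusted p = 0.0458). Both values lie close to the threshold, and 14 and 16 of the 21 other settings tried did not pass it, with values between -0.41 and -0.26 for GFP+ cells and between -0.42 and -0.23 for GFP- cells. In the order of levels, GFP- EC, GFP- HC, GFP+ EC and GFP+ HC from high to low, each step therefore rests on a difference near the threshold. The step from GFP- HC to GFP+ EC was 0.34 ± 0.09 (adjusted p = 0.0292) and was lost in 8 of the 21 settings.

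Transcripts of markers of smooth muscle and mesenchyme, tissues that make connexin 43, were found in these libraries. The cells they came from were not tested. Their sums varied between libraries and overlapped between GFP+ and GFP- cells of each type. The summed FPKM of 16 such markers was 647, 300.0 and 384 in the 3 libraries of GFP+ HC, 1487, 503 and 1481 in GFP- HC, 394, 291 and 574 in GFP+ EC and 1073, 342 and 1436 in GFP- EC. None of the 16 was at 0 throughout a group, and none passed the test between GFP+ HC and GFP- HC (median -0.79), where 4.26% of all tested genes did. Of the 16, 1 was lower in GFP+ EC than in GFP- EC (median -0.78), where 6.51% of all tested genes were. Replicate 2 had the lowest sum in each of the 4 populations. Gja1 in replicate 2 was 50.9 FPKM in GFP+ EC, the lowest library of that group, and 50.8 FPKM in GFP+ HC, the highest of that group. It was 74.3 FPKM in GFP- HC and 96.5 FPKM in GFP- EC, the middle value of each group. With the mean of these markers as a covariate, the falls of Gja1 with GFP kept their calls in both cell types. The part of these transcripts in the levels of Gja1 was not tested further.

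Gjc1 was the most even of the 4. Its levels were 34.2, 36.0 and 30.8 FPKM in GFP+ HC, 36.5, 36.7 and 36.4 FPKM in GFP- HC, 36.2, 47.9 and 42.3 FPKM in GFP+ EC, and 30.4, 38.7 and 30.3 FPKM in GFP- EC. Replicate 2 was the highest of the 3 libraries in each of the 4 populations. The means, 33.6 ± 2.65 FPKM in GFP+ HC, 36.5 ± 0.175 FPKM in GFP- HC, 42.1 ± 5.89 FPKM in GFP+ EC and 33.1 ± 4.82 FPKM in GFP- EC (SD, n = 3 each), did not differ beyond the test's threshold in any of the 6 pairs of populations. The intervals bound what could have been missed. The difference was -0.12 ± 0.12 between GFP+ HC and GFP- HC (95% interval -0.38 to 0.14, adjusted p = 0.681) and -0.31 ± 0.12 between GFP+ HC and GFP+ EC (-0.57 to -0.05, adjusted p = 0.11). It was 0.15 ± 0.12 between GFP- HC and GFP- EC (-0.11 to 0.41, adjusted p = 0.562). Between GFP+ EC and GFP- EC it was 0.34 ± 0.12 (0.08 to 0.60, adjusted p = 0.0839), and this one passed the test without replicate 1 of GFP+ EC (0.44), without replicate 2 of GFP- EC (0.45), after scaling the libraries to equal sums (0.54) and with the replicate number as a block (0.34, adjusted p = 0.0493).

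Counted over the 4 genes, 1 was called higher (Gja5) and 1 lower (Gja1) in GFP+ HC than in GFP- HC, where 4.26% of all tested genes were called, 2.98% as higher and 1.28% as lower. In GFP+ EC against GFP- EC, 2 were higher (Gja5 and Gja4) and 1 lower (Gja1), where 13.5% of genes were called, 6.96% as higher and 6.51% as lower. Between the cell types none was higher and 3 were lower in cluster cells, both among GFP+ cells, where 14.3% of genes were called, 8.21% as higher and 6.09% as lower, and among GFP- cells, where 4.29% were, 2.36% as higher and 1.93% as lower. In GFP+ HC against GFP- EC, Gja4 and Gja1 were lower, with 21.6% of genes called, 12.8% as higher and 8.85% as lower. In GFP- HC against GFP+ EC, Gja5 and Gja4 were lower and Gja1 higher, with 15.4% called, 7.95% as higher and 7.49% as lower. None of the 4 was called in the difference between the GFP effects, where 0.527% of genes were, 0.188% as higher and 0.339% as lower, although Gja4 and Gjc1 had an unadjusted p under 0.05 there. The median of the 4 was 0.18 in GFP+ HC against GFP- HC, 0.72 in GFP+ EC against GFP- EC, -1.64 in GFP+ HC against GFP+ EC and -1.35 in GFP- HC against GFP- EC, beside medians over all genes of 0.00142, -0.03, 0.05 and 0.01. These comparisons share libraries, so their counts do not support each other.

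**Figure D2:**
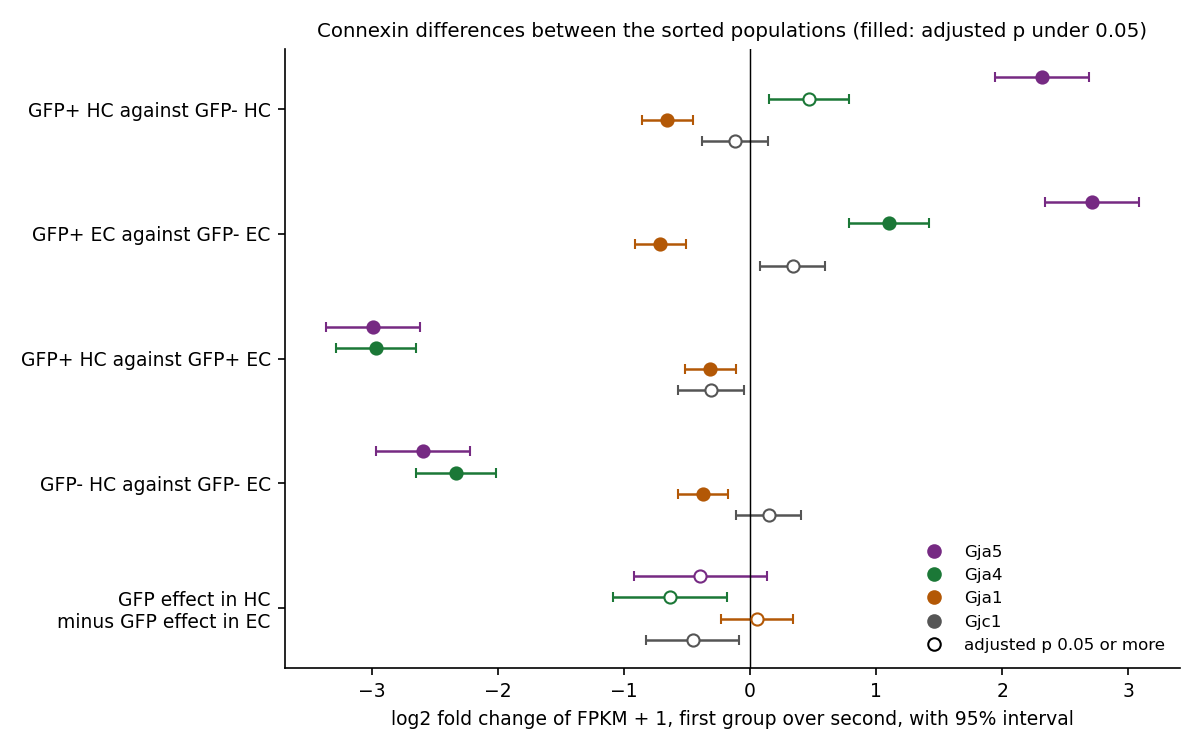
Log2 fold changes of FPKM + 1 of the 4 connexins, first population over second, for the 2 comparisons by GFP, the 2 between cell types and the difference of the GFP effects. Bars are 95% intervals from limma, filled points have an adjusted p under 0.05 over all tested genes and open points do not. Gja5 lies at 2.32 and 2.71 for GFP, Gja1 at -0.66 and -0.71, and all 4 points of the difference are open.

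Added together, the 4 genes had 125, 142 and 145 FPKM in GFP+ HC, 128, 137 and 132 FPKM in GFP- HC, 530, 569 and 568 FPKM in GFP+ EC, and 274, 261 and 233 FPKM in GFP- EC. The sums of both cluster populations overlapped, GFP+ endothelium had the highest sum, and in each library the 4 made up between 96.6% and 99.4% of the FPKM of all 20 connexins. What differed in cluster cells was the mixture. Gja5 made up 24.5% ± 5.14 of the 4 in GFP+ HC and 4.42% ± 0.648 in GFP- HC, and Gja1 34.1% ± 3.87 in GFP+ HC and 55.7% ± 1.26 in GFP- HC (SD, n = 3 each). In endothelium Gja5 made up 48.5% ± 0.868 in GFP+ EC and 15.8% ± 0.810 in GFP- EC, and Gja1 10.5% ± 1.37 in GFP+ EC and 37.5% ± 1.07 in GFP- EC. The share of Gja4 was 33.4% ± 1.45 in GFP+ EC and 33.7% ± 2.86 in GFP- EC, and lower in the clusters, 16.8% ± 1.82 in GFP+ HC and 12.3% ± 1.46 in GFP- HC. Gjc1, with group means of 33.1 to 42.1 FPKM, made up on average 24.7% of the 4 in GFP+ HC and 27.6% in GFP- HC. In endothelium it made up 7.56% in GFP+ EC and 12.99% in GFP- EC.

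**Figure D3:**
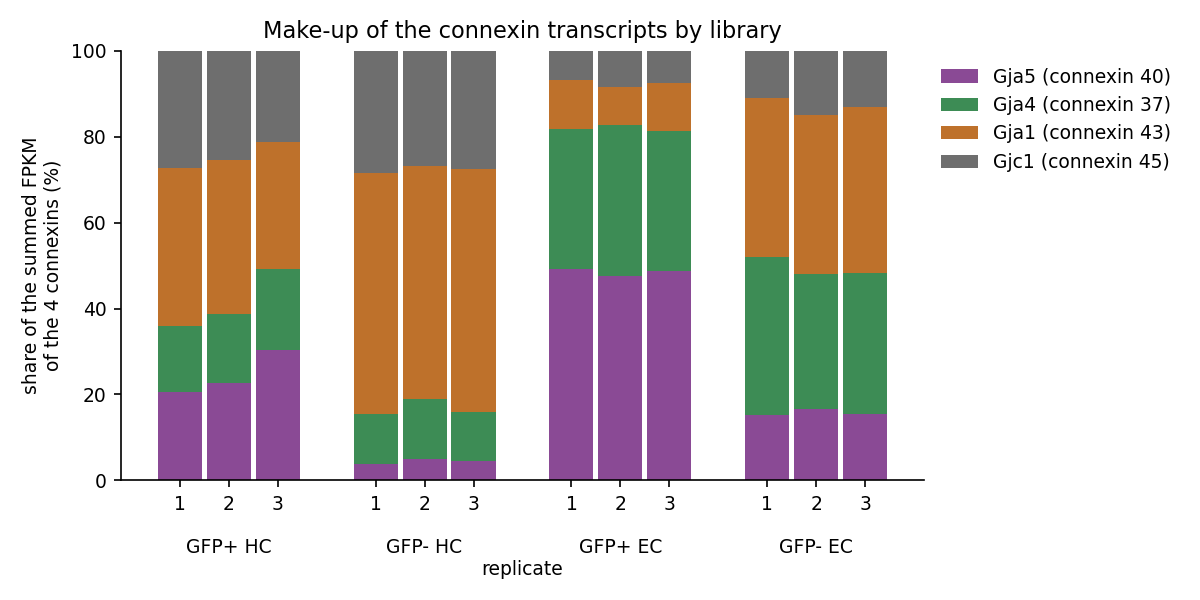
Share of each connexin in the summed FPKM of the 4, in percent, for each of the 12 libraries (numbers under the bars are replicates). Gja5 takes 48.5% on average in GFP+ EC and 4.42% in GFP- HC, and Gja1 takes 55.7% in GFP- HC and 10.5% in GFP+ EC.

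Ratios of FPKM between pairs of connexins within a library do not depend on how that library was scaled. The ratio of Gja5 to Gja4 was 1.33, 1.41 and 1.61 in GFP+ HC, 0.316, 0.354 and 0.409 in GFP- HC, 1.52, 1.36 and 1.49 in GFP+ EC, and 0.411, 0.531 and 0.473 in GFP- EC. Gja5 thus exceeded Gja4 in all 6 GFP+ libraries and Gja4 exceeded Gja5 in all 6 GFP- libraries, whichever the cell type. Among GFP- cells the ratio in HC lay narrowly below that in EC (highest 0.409 against lowest 0.411), and among GFP+ cells the ranges overlapped. Labels were permuted within cell types for the effect of GFP and within GFP classes for the effect of cell type, in 12 exact two-sided tests over 400 arrangements each, in which p cannot go below 0.005. The tests used log2 ratios of FPKM + 1, so their values differ from those of the plain ratios, and the added 1 leaves some dependence on scaling. This log2 ratio of Gja5 to Gja4 differed by 1.73 with GFP (exact permutation p = 0.005, adjusted p = 0.006). Averaged over both GFP classes, it differed by -0.14 between HC and EC (exact permutation p = 0.145, adjusted p = 0.145). With GFP all 6 pairs reached the smallest p, and the ratio of Gja5 to Gja1 moved most, by 3.20. Between HC and EC the 4 pairs that set Gja5 or Gja4 against Gja1 or Gjc1 fell by 2.30 to 2.71 at the smallest p. Gja1 against Gjc1 differed there by -0.26 (exact permutation p = 0.095, adjusted p = 0.104), or by -0.36 and past the threshold without replicate 2 of GFP+ EC.

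**Figure D4:**
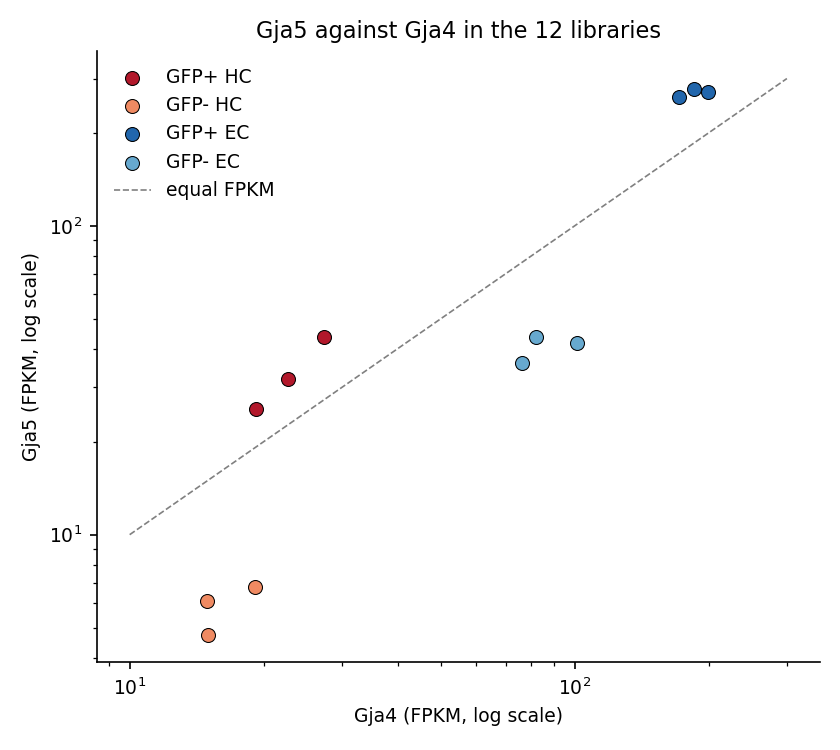
Gja5 against Gja4, both in FPKM on log axes, one point per library, with a dashed line where the levels are equal. The 6 GFP+ libraries lie above the line and the 6 GFP- libraries below it, and within each GFP class the endothelial libraries lie up and to the right of the cluster libraries.

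Over the 12 libraries the correlation of log2(FPKM + 1) was 0.90 between Gja5 and Gja4, 0.16 between Gja4 and Gja1, -0.26 between Gja5 and Gja1, -0.21 between Gja1 and Gjc1, 0.37 between Gja4 and Gjc1 and 0.40 between Gja5 and Gjc1. The points are 4 groups of 3, so these values describe the order of the groups and have no p. The same measure was used to name the genes of the whole table with the most similar pattern. Most like Gja5 were Bmx (r = 0.985), a kinase of arterial endothelium, Ddah1 (0.983), which degrades inhibitors of nitric oxide synthase, Tinagl1 (0.978), a matrix protein, and Vegfc (0.976), a growth factor of lymphatic vessels. Bmx had 2.44, 2.07 and 3.32 FPKM in GFP+ HC, 0.504, 0.616 and 0.631 FPKM in GFP- HC, 14.5, 13.8 and 12.9 FPKM in GFP+ EC, and 2.29, 3.44 and 2.24 FPKM in GFP- EC, with the highest and lowest groups and the overlap of the middle groups as in Gja5. Most like Gja4 were Pdgfd (0.979), a platelet-derived growth factor, Sema3g (0.978), a semaphorin of arterial endothelium, Fam129b (0.975) and Jag2 (0.967), a Notch ligand. Sema3g averaged 8.06 ± 0.978 FPKM in GFP+ HC, 6.62 ± 1.67 FPKM in GFP- HC, 57.8 ± 2.76 FPKM in GFP+ EC and 19.9 ± 3.55 FPKM in GFP- EC (SD, n = 3 each).

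Most like Gja1 were Tspan15 (0.979), a tetraspanin, Gprc5b (0.974), an orphan receptor, Nos2 (0.972), the inducible nitric oxide synthase, and Tpm4 (0.961), a tropomyosin of the cell skeleton. Tspan15 averaged 8.85 ± 1.23 FPKM in GFP+ HC, 15.8 ± 2.48 FPKM in GFP- HC, 12.5 ± 1.69 FPKM in GFP+ EC and 23.3 ± 2.47 FPKM in GFP- EC, the order of Gja1. For Gjc1 the most similar genes reached only 0.884 (Atrn), 0.852 (Gadd45a), 0.838 (Mdga1) and 0.827 (Kat6a). Leaving out 1 library moved these 4 values to between 0.703 and 0.920, whereas for the other 3 connexins the range was 0.953 to 0.990.

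**Figure D5:**
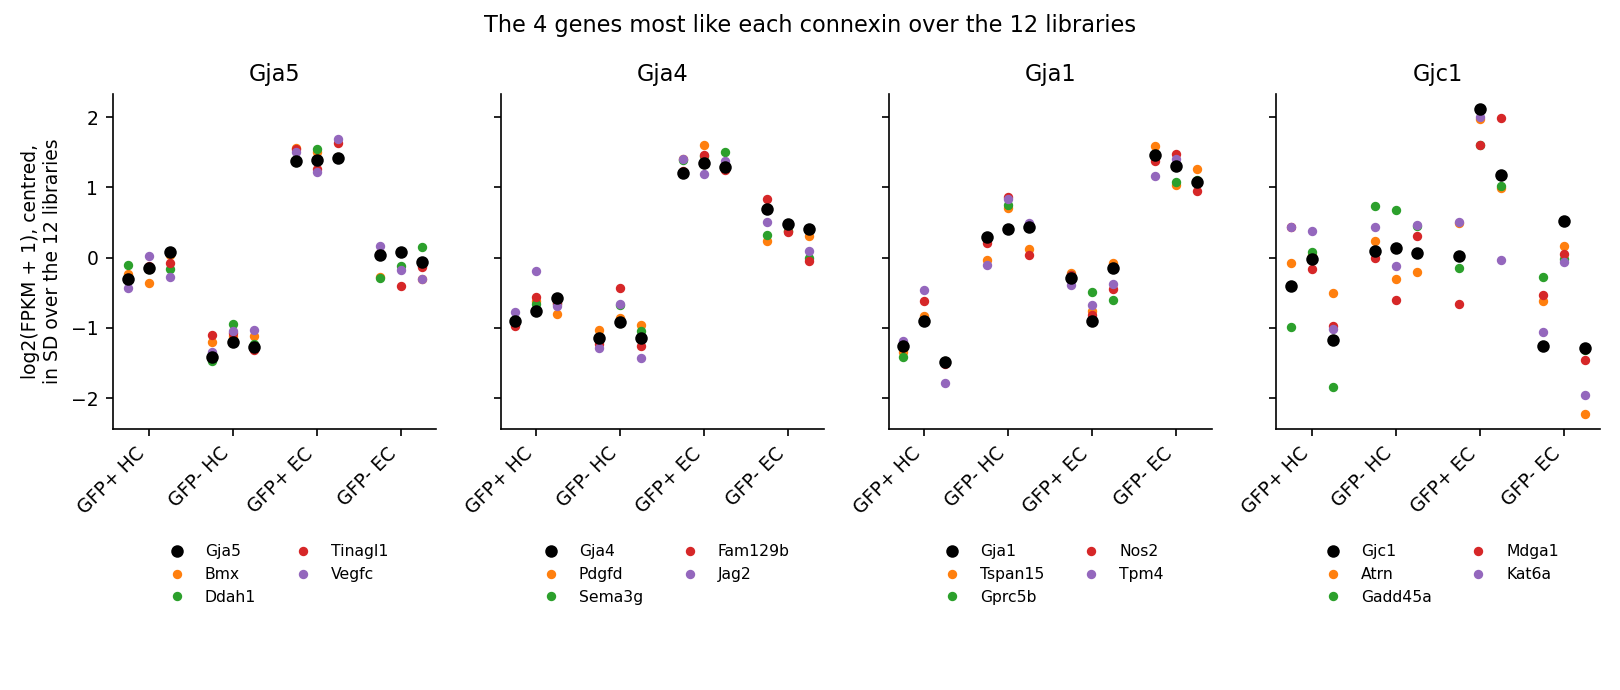
Pattern of each connexin (black) and of the 4 genes most like it (colours) over the 12 libraries, as log2(FPKM + 1) centred on the gene's mean and divided by its SD. Genes follow Gja5, Gja4 and Gja1 closely (r of 0.961 to 0.985), and Gjc1 more loosely (0.827 to 0.884).

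The other 16 connexins were at or near the lower end of the scale. Of these, 14 had a mean below 1 FPKM in every population, with a highest single value of 0.668 FPKM, and 2 entered the test. Among the tested ones, Gjb2 reached at most 1.63 FPKM and was not called. The pannexins are related channel proteins that do not usually form gap junctions. Panx1 averaged 7.76 FPKM in GFP+ HC, 9.37 FPKM in GFP- HC, 11.06 FPKM in GFP+ EC and 11.04 FPKM in GFP- EC with no call, and Panx2 and Panx3 stayed at or below 0.244 FPKM.

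Another list holds proteins that bind connexins, anchor them to junctions or remove them. Of its 24 tested genes, 1 was higher and 1 lower in GFP+ HC than in GFP- HC (median -0.03), where 2.98% of all tested genes were higher and 1.28% lower. Nov, a matricellular protein known to bind connexin 43, was higher (5.95 against 2.41 FPKM, 1.01 ± 0.17, adjusted p = 0.00624), and Dbn1, the actin-binding protein drebrin that holds connexin 43 at the membrane, was lower (123 against 155 FPKM, -0.33 ± 0.08, adjusted p = 0.04). Leaving out any single library of GFP+ HC, GFP- HC or GFP+ EC left 1 of these 2 calls. In GFP+ EC 5 were higher and none lower than in GFP- EC (median 0.08), where 6.96% of all genes were higher and 6.51% lower. Among the 5 were Nov (7.23 against 3.55 FPKM, 0.86 ± 0.17, adjusted p = 0.00719), the junction protein beta-catenin Ctnnb1 (644 against 511 FPKM, 0.33 ± 0.07, adjusted p = 0.00894) and Cdh5 (713 against 513 FPKM, 0.48 ± 0.13, adjusted p = 0.0326). Another called member, named after its values were seen, was the ubiquitin ligase gene Smurf2. Only 2 to 3 of the 5 calls were made without replicate 1 of GFP+ HC, replicate 1 of GFP- HC, any library of GFP+ EC, or replicate 1 or 3 of GFP- EC.

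Between the cell types, 9 of the 24 were lower and none higher in GFP+ HC against GFP+ EC (median -0.18), where 6.09% of all genes were lower, and the other 15 did not pass the test. The 3 with the smallest p were Cav2 (14.8 against 32.1 FPKM, -1.07 ± 0.15, adjusted p = 0.00102), Dbn1 (123 against 179 FPKM, -0.54 ± 0.08, adjusted p = 0.0013) and Cav1 (86.5 against 173 FPKM, -1.01 ± 0.15, adjusted p = 0.00169). Cav1 and Cav2 encode caveolins, the coat proteins of endothelial caveolae. In GFP- HC against GFP- EC 3 were lower, the caveolins and Dbn1, and 21 did not pass (median -0.07), where 1.93% of all genes were lower. The count was only 1 without replicate 1 of GFP- HC or of GFP- EC. Of the 10 pan-endothelial markers, 7 fell in GFP+ HC against GFP+ EC (median -0.57) and 1 fell in GFP- HC against GFP- EC (median -0.22). Macrophage markers were higher in cluster cells, 10 of 10 in each GFP class, beside 8.21% of all genes among GFP+ cells and 2.36% among GFP- cells. Their sums were 283 to 1578 FPKM in GFP+ HC, 266 to 849 FPKM in GFP- HC, 14.4 to 37.2 FPKM in GFP+ EC and 12.6 to 19.2 FPKM in GFP- EC. The part of either list in the lower connexin levels of cluster cells was not tested.

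Genes known to act on Gja4 and Gja5 in arteries or heart, such as Notch ligands and their Hey targets, SoxF and Klf factors, were tested for 25 members. In GFP+ HC 3 were higher and none lower than in GFP- HC (median 0.03), beside 2.98% and 1.28% of all genes. Jag1, a Notch ligand, had 17.2 FPKM in GFP+ HC and 7.59 FPKM in GFP- HC (1.08 ± 0.12, adjusted p = 0.000534). The flow-responsive factors Klf2 (115 against 65.9 FPKM, 0.81 ± 0.14, adjusted p = 0.00638) and Klf4 (43.5 against 21.9 FPKM, 0.97 ± 0.17, adjusted p = 0.00916) were the others, and without replicate 2 of GFP+ HC 5 were called. In GFP+ EC 9 were higher and none lower than in GFP- EC (median 0.34), beside 6.96% and 6.51% of all genes. Jag1 had 50.2 FPKM in GFP+ EC and 9.72 FPKM in GFP- EC (2.27 ± 0.12, adjusted p = 1.15e-06), Hey2, a repressor induced by Notch, had 23.1 FPKM in GFP+ EC and 3.02 FPKM in GFP- EC (2.59 ± 0.20, adjusted p = 1.67e-05), and Klf2 had 169 FPKM in GFP+ EC and 71.3 FPKM in GFP- EC (1.24 ± 0.14, adjusted p = 0.000189). For Jag1 and Hey2 the GFP effect itself was smaller in cluster cells, by -1.18 ± 0.17 (adjusted p = 0.0125) and -1.82 ± 0.29 (adjusted p = 0.0181). These were 2 of the 25, beside 0.339% of all genes called lower. Only 1 of these 2 calls was made without any one of 8 of the 12 libraries.

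In GFP+ HC against GFP+ EC 14 of the 25 were lower and 1 higher (median -0.54), beside 6.09% and 8.21% of all genes, with Hey1 at 10.9 against 51.2 FPKM (-2.14 ± 0.14, adjusted p = 9.97e-06), Hey2 at 3.003 against 23.1 FPKM (-2.61 ± 0.20, adjusted p = 3.02e-05) and Jag1 at 17.2 against 50.2 FPKM (-1.49 ± 0.12, adjusted p = 3.63e-05). The one that was higher was Rbpj, the DNA-binding partner of Notch (21.1 against 12.6 FPKM, 0.69 ± 0.14, adjusted p = 0.00648). Of the same 25, 4 were lower, 1 was higher and 20 did not pass in GFP- HC against GFP- EC (median -0.22), beside 1.93% lower and 2.36% higher of all genes. The called ones were Hey1 (13.8 against 42.5 FPKM, -1.55 ± 0.14, adjusted p = 0.000472), the Notch ligands Dll4 (18.2 against 43.2 FPKM, -1.21 ± 0.16, adjusted p = 0.00363) and Jag2 (8.16 against 18.6 FPKM, -1.12 ± 0.16, adjusted p = 0.00661) and, named after its values were seen, the SoxF factor Sox7, with Rbpj again higher (19.7 against 12.8 FPKM, 0.58 ± 0.14, adjusted p = 0.0391). Here 9 were called without replicate 2 of GFP- HC, and 3 without replicate 1 or 3 of GFP- HC, 1 or 3 of GFP+ EC, or 1 or 2 of GFP- EC.

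Gja5 and Gja4 belong to the usual lists of arterial genes, and 15 of these were tested, both included. This list shares members, such as Dll4, Hey1, Hey2 and Jag1, with the list of regulators above, so their counts are not independent. All 15 fell in GFP+ HC against GFP+ EC (median -1.76), where 6.09% of all genes did, and 10 in GFP- HC against GFP- EC (median -0.73), where 1.93% did, or 6 without replicate 1 of GFP- HC. With GFP, 9 were higher and none lower in GFP+ EC (median 0.72), where 6.96% of all genes and 7 of the 10 pan-endothelial markers were higher. In GFP+ HC, 4 were higher and 1 lower than in GFP- HC (median 0.05), beside 2.98% and 1.28% of all genes. Gja5 was called higher together with Jag1, Bmx and the water channel Aqp1 (25.3 FPKM in GFP+ HC against 9.45 FPKM in GFP- HC, 1.35 ± 0.17, adjusted p = 0.001). Unc5b, a netrin receptor of arterial endothelium, went the other way (11.0 against 34.7 FPKM, -1.57 ± 0.11, adjusted p = 1.89e-05). For 3 of the 15, Unc5b, Jag1 and Hey2, the difference of the GFP effects, HC minus EC, was called lower, beside 0.339% of all genes. For Unc5b it was -1.28 ± 0.15 (adjusted p = 0.00549). Of 10 venous and lymphatic genes, 2 were higher and 2 lower in GFP+ HC than in GFP- HC (median 0.08), beside the same 2.98% and 1.28% of all genes. Von Willebrand factor, Vwf, was higher (174 against 33.6 FPKM, 2.35 ± 0.14, adjusted p = 6.59e-06) and the lymphatic factor Prox1 was lower (2.28 against 11.2 FPKM, -1.90 ± 0.15, adjusted p = 6.23e-05). In GFP+ EC 3 of the 10 were higher and 1 lower than in GFP- EC (median 0.29), beside 6.96% and 6.51% of all genes. In GFP+ HC against GFP+ EC 1 was higher and 2 lower (median -0.06), beside 8.21% and 6.09%. In GFP- HC against GFP- EC 3 were higher and none lower (median 0.22), beside 2.36% and 1.93%, and 5 were called without replicate 3 of GFP+ HC.

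The genes next to the 4 connexins, up to 2 protein-coding genes on each side in RefSeq's order on GRCm38.p6, are 16 genes, of which 11 were tested. Acp6, a phosphatase gene next to Gja5 on chromosome 3, was higher in GFP+ HC than in GFP- HC (16.6 ± 0.842 against 11.6 ± 0.849 FPKM, SD, n = 3 each, adjusted p = 0.0287). None of the other 10 was called there, where 4.26% of all tested genes were. None of the 11 was called in GFP+ EC against GFP- EC, beside 13.5% of all tested genes. Between cell types none was called either, beside 14.3% among GFP+ cells and 4.29% among GFP- cells. With 11 genes these counts say little about the neighbours. In GFP+ HC against GFP- EC 2 of the 11 were higher and 1 lower, beside 12.8% and 8.85% of all tested genes. In GFP- HC against GFP+ EC 1 was lower and none higher, beside 7.49% and 7.95%. The called one was Serinc1, near Gja1 on chromosome 10 (73.9 against 88.6 FPKM, -0.26 ± 0.07, adjusted p = 0.0282), which was at 71.2 to 92.8 FPKM over all libraries. Eftud2, near Gjc1 on chromosome 11, was at 60.5 to 76.3 FPKM.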

How the data were processed

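The deposited table gives FPKM values that the authors computed per gene symbol and library, with 3 pools for each of 4 populations, whose names come from the sample titles. The genome build was mm9 per the submitters' processing notes, which also list the tools Cufflinks, featureCounts, edgeR and DESeq without saying what each did. Aligner, annotation and scaling of libraries: not given in the sources used here. Per the labels' protocols, cells were sorted into TRIzol-LS and RNA was poly(A)-selected. FPKM are estimates from which whole reads could not be recovered, so no count test was made and sequencing depth stays unknown. FPKM is relative within a library, so a change of abundant genes moves the others.

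From these values, log2(FPKM + 1) was analysed with limma 3.58.1 in R 4.3.3, with 4 group means over 12 libraries, 8 residual degrees of freedom, empirical Bayes moderation and an intensity trend. Genes that reached FPKM 1 in 3 or more libraries (13278) were tested, two-sided, with Benjamini-Hochberg adjustment over all of them and a threshold of 0.05, in 7 comparisons. The fit was tested on simulated data. Log2 ratios of FPKM + 1 between connexins were tested by exact permutation with scipy 1.17.1. Since the labels call the pools independent, the p-values reflect variation from pool to pool. The members and gene lists were chosen with earlier results of these data known. Named genes were the connexins, the 4 genes with the highest correlation to each over the 12 libraries (no clone or model names), and up to 3 called members of a list with the smallest p in each direction. Alternatives were a pseudocount of 0.1, no filter, a mean FPKM of 5 or more, scaling to an equal sum, quantile normalization, a fit of only the groups compared, mesenchyme or erythroid markers as a covariate, a replicate block and leaving out each library. Promoter windows came from RefSeq on GRCm38.p6, where 3 of the 4 genes had an entry and Gjc1 did not. Its assembly was also used for the order of neighbouring genes, and no coordinate of the mm9 files was used. A few members of the gene lists and neighbouring genes are not reported here.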

Additional observations from a re-analysis of the deposited data

How the results depend on the processing

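Over 21 alternatives to the settings of the report, the changes of Gja5, Gja4 and Gja1 with GFP in endothelium and the falls of Gja5 and Gja4 in cluster cells against endothelium kept direction and call in every setting. In cluster cells, Gja5 and Gja1 lost their call only with the erythroid covariate (2.22 and -1.01), and Gjc1, not called, turned to 0.0645 there. The fall of Gja1 in GFP+ HC against GFP+ EC lost its call with no filter, the groups compared alone, the mesenchyme covariate and the replicate block (-0.32 each), an equal sum (-0.34) and quantile normalization (-0.33), and ranged from -0.41 to -0.26 when each library was left out. In GFP- HC against GFP- EC it lost its call with no filter, the groups compared alone, the mesenchyme covariate and the replicate block (-0.37 each), an equal sum (-0.23), quantile normalization (-0.28) and the erythroid covariate (-0.25), with -0.42 to -0.34 when each library was left out. In GFP- HC against GFP+ EC the rise of Gja1 lost its call with an equal sum (0.28), the mesenchyme covariate (0.34) and the erythroid covariate (0.65), with 0.25 to 0.40 over left-out libraries. The difference of the GFP effects on Gja1 turned to -0.10 with an equal sum, -0.0536 with quantile normalization and -0.11 with the erythroid covariate, with -0.0367 to 0.118 over left-out libraries. Gjc1 in GFP+ EC against GFP- EC gained a call with an equal sum (0.54) and the replicate block (0.34), with 0.24 to 0.45 over left-out libraries, and in GFP+ HC against GFP- EC turned to -0.0595 with the mesenchyme covariate, with -0.0308 to 0.141 over left-out libraries. Gja5 in GFP+ HC against GFP- EC ranged from -0.48 to -0.10 and the ratio of Gja1 to Gjc1 between cell types from -0.36 to -0.20 when each library was left out. The share of Gja1 in GFP- HC was 54.2% of all connexins. The cause of these changes was not tested, except that more genes were tested with no filter and fewer libraries entered the fits of 2 groups. Scaling to an equal sum moved the median of all genes from -0.03 to 0.14 in GFP+ EC against GFP- EC, from 0.01 to 0.14 in GFP- HC against GFP- EC and from 0.00172 to 0.16 in GFP+ HC against GFP- EC, so that relative to it the change of Gja1 in GFP- HC against GFP- EC was as in the report.

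Counts of called genes moved more. In GFP+ HC against GFP- HC 566 genes were called, 363 with a mean FPKM of 5 or more, 13 with the erythroid covariate and 321 to 654 over left-out libraries. In GFP+ EC against GFP- EC they were 1789, 939 with the groups compared alone, 1192 with the mesenchyme and 266 with the erythroid covariate, and 1004 to 2203 over left-out libraries. In GFP+ HC against GFP+ EC they were 1898, and 1261 to 2090 over left-out libraries, lowest without replicate 1 of GFP+ EC. In GFP- HC against GFP- EC they were 569, 332 with no filter, 284 with the groups compared alone and 91 to 698 over left-out libraries, lowest without replicate 1 of GFP- HC. In GFP+ HC against GFP- EC they were 2871, 1418 with the groups compared alone and 151 with the erythroid covariate. In GFP- HC against GFP+ EC they were 2050, 1203 with the mesenchyme and 153 with the erythroid covariate, and 1221 to 2306 over left-out libraries. For the difference of the GFP effects they were 70, 39 with a pseudocount of 0.1, 39 with a mean FPKM of 5 or more, 148 with an equal sum, 127 with the mesenchyme and 35 with the erythroid covariate, and 23 to 77 over left-out libraries. Libraries with the same replicate number did not meet the criterion for pairing, since of 18 such pairs 4 had a correlation of deviations over 0.1 (range -0.0845 to 0.270) and 6 of the 12 libraries correlated best with their own number. Replicate 2 nonetheless had the lowest mesenchyme sum and the highest Gjc1 in all 4 populations, so a batch shared by number was not excluded. The replicate block is an alternative only, and besides the calls of Gja1 and Gjc1 named above it changed none of the 4 genes' calls. FPKM without read numbers limits what can be said of genes near 0, such as the other connexins.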
